A study of Drosophila melanogaster with 7 samples.

Results

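The sites described here are 1244 places in the genome of a Drosophila melanogaster cell line where CP190, dCTCF and BEAF were all called in interphase. They were chosen by the interphase peak calls alone, as the CP190 peaks on arms 2L, 2R, 3L and 3R and on chromosomes 4 and X (the main arms) that overlapped, by at least 1 bp, both an interphase dCTCF peak and an interphase BEAF peak. The interphase values below are therefore a description, and the mitotic calls are separate measurements. They made up 1244 of 10431 interphase CP190 peaks on the main arms (11.9%) and of 11470 on all sequences. The other main-arm CP190 peaks carried BEAF without dCTCF (2867), dCTCF without BEAF (953) or neither (5367).

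Insulator proteins bind DNA elements that keep enhancers, silencers and chromatin domains apart or bring them together. In flies dCTCF, a homolog of vertebrate CTCF, BEAF, the boundary element-associated factor, and Su(Hw), the factor of the gypsy insulator, bind DNA directly, while CP190 carries zinc fingers and a BTB domain and is brought to many of their sites as a shared cofactor. Sites where several of these proteins meet are known to lie often at borders between chromatin domains. In mitosis chromosomes condense, domain structure is lost and many transcription factors leave chromatin, so the proteins that stay at such a site are of interest as marks that could pass through division.

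All libraries came from Kc167, an established embryonic cell line grown without serum and with no further treatment or genotype given in the labels. The fixed cells were stained for DNA and for histone H3 phosphorylated on serine, a mark of condensed mitotic chromatin, and sorted into an interphase and a mitotic population before chromatin immunoprecipitation and sequencing (ChIP-seq). CP190, dCTCF and BEAF were profiled in both populations and Su(Hw) was analysed here in mitosis, which gives 7 peak lists with 1 library per group. Without replicates no difference could be tested, and the text prints no p-values. Intervals are 95% Wilson intervals of a share or 95% Newcombe intervals of a difference and cover counting error over sites only. On the main arms the lists held 10431 CP190, 2882 dCTCF and 5681 BEAF peaks in interphase, and 3759 CP190, 2237 dCTCF, 2432 BEAF and 1024 Su(Hw) peaks in mitosis. Depth is unknown, so a site without a call was not called at that depth. The H3 antibody used for sorting was on the mitotic cells before precipitation and was detected with an anti-rabbit reagent, as would be the rabbit antibodies to CP190, BEAF and Su(Hw); its part in the mitotic calls was not tested.

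As chosen, 1111 of the 1244 sites (89.3%) held exactly 1 dCTCF peak and 1 BEAF peak, 49 held 2 or more dCTCF peaks and 98 held 2 or more BEAF peaks. A base common to all 3 peaks existed at 1222 sites. The CP190 peaks had a median width of 897 bp, from 248 to 4567 bp, and the midpoints of the dCTCF and BEAF peaks lay a median of 124 bp apart, with quartiles at 43.9 and 282 bp. Where several peaks of a protein overlapped a site, the highest scoring stood for it. The 3 proteins differed in how strongly they were called. The authors' peak scores, which rise with the evidence for a peak within 1 list and cannot be compared between lists, had medians of 1609 for CP190, 126 for dCTCF and 732 for BEAF. The dCTCF score was under 100 at 512 sites and the BEAF score at 194, whereas the CP190 score was at or above 3100, a value at which many peaks are tied, at 332 sites. At the edge of the rule, the member at 3L 9469867 to 9470414 shared 22 bp with a partner peak, and the CP190 peak with BEAF at 2L 13219600 to 13220054 missed a dCTCF peak by 12 bp and was left out. Only 4 members had an overlap under 50 bp and 12 other CP190 peaks missed by under 50 bp. The sites covered 1282 of the main-arm interphase dCTCF peaks (44.5%) and 1322 of the BEAF peaks (23.3%). Neighbouring sites shared a dCTCF peak at 22 members and a BEAF peak at 43, so the sites are not fully independent.

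In mitosis most of these sites still carried at least 1 of the 4 proteins, but the combination differed widely from site to site. CP190 was called at 848 of the 1244 sites (68.2%, 65.5 to 70.7%), beside 31.4% of all main-arm interphase CP190 peaks. BEAF was called at 651 (52.3%, 49.6 to 55.1%), beside 20.5%, and dCTCF at 572 (46.0%, 43.2 to 48.8%), beside 16.1%. Su(Hw), which the choice of sites did not involve, was called at 127 (10.2%, 8.65 to 12.0%), beside 7.65%. None of the 4 was called at 110 sites (8.84%, 7.39 to 10.6%), beside 50.7%. That share was 16.8% without the mitotic dCTCF list, 19.1% with mitotic scores of at least 100 and 27.6% when the mitotic and the CP190 peak had to share 50% of each. Exactly 1 protein was called at 364 sites, 2 at 502, 3 at 242 and all 4 at 26, and the share with 2 or more was 61.9% (59.2 to 64.6%), beside 21.0%. The mitotic lists differ in length, so these shares do not rank the proteins. With the 1024 highest scoring mitotic peaks of each list, the shares were 34.4% for CP190, 28.6% for dCTCF, 27.8% for BEAF and 10.2% for Su(Hw), with 33.9% of sites carrying none.

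Of 16 possible combinations 14 occurred. The most frequent was CP190 with BEAF, at 221 sites (17.8%, 15.7 to 19.99%; 5.98% of all main-arm interphase CP190 peaks). The full set of CP190, dCTCF and BEAF without Su(Hw) was kept at 185 sites (14.9%, 13.0 to 17.0%; 3.04% of all). CP190 was the single protein called at 182 sites (14.6%; 13.8% of all), a share close to that background, and CP190 with dCTCF was called at 136 (10.9%; 3.14% of all). The combinations without CP190 were dCTCF with BEAF at 101 sites (8.12%; 3.13%), dCTCF alone at 99 (7.96%; 5.42%) and BEAF alone at 83 (6.67%; 7.13%). With the rare Su(Hw) combinations this gives 286 sites (23.0%, 20.7 to 25.4%; 15.9% of all) at which dCTCF or BEAF was called in mitosis and CP190 was not. That share was 37.8% (36.0 to 39.6%) at CP190 peaks with BEAF and no dCTCF and 10.7% (8.90 to 12.8%) at those with dCTCF and no BEAF. The difference from the BEAF peaks was 19.5 points (2.52 to 33.4) in the lowest quintile of interphase CP190 scores. In the highest it was -3.71 points (-7.69 to -0.215).

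**Figure D1:**
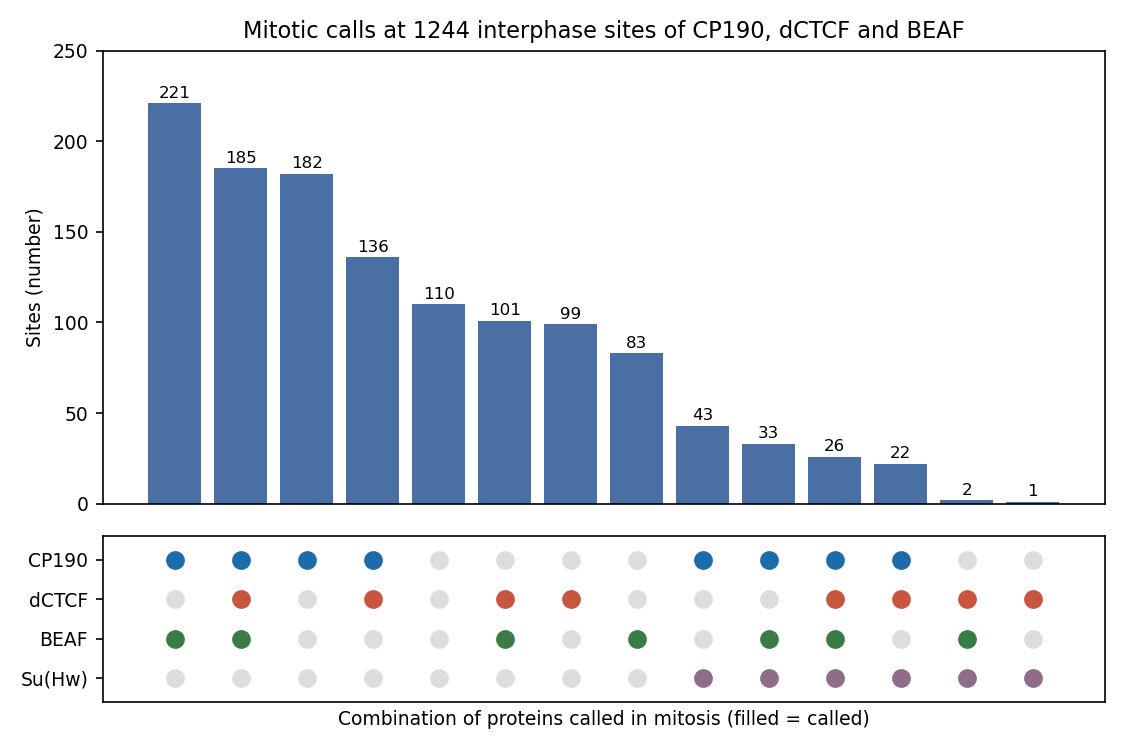
Number of interphase sites of CP190, dCTCF and BEAF (bars, n = 1244 in all) with each combination of proteins called in mitosis; filled dots under a bar mark the proteins called. CP190 with BEAF is the most frequent (221 sites), 110 sites have no call, and Su(Hw) stands almost always beside CP190.

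Su(Hw) was found at these sites with CP190. CP190 was called in mitosis at 124 of the 127 sites with Su(Hw) (97.6%) and at 724 of the 1117 without it (64.8%), a difference of 32.8 points (27.7 to 36.1). Among the sites in the lowest tertile of interphase CP190 scores these shares were 16 of 19 and 127 of 396. Over all main-arm interphase CP190 peaks, 798 had mitotic Su(Hw). CP190 was not called at 208 of these with Su(Hw) alone, 10 with BEAF, 10 with dCTCF and 6 with both. Among CP190 peaks with BEAF and no dCTCF, 145 had mitotic Su(Hw), and the numbers without CP190 were 7, 10, 3 and 4. Su(Hw) thus stood mostly beside mitotic CP190 at other CP190 peaks too. No site carried Su(Hw) as its single mitotic protein, while 1.99% of all main-arm interphase CP190 peaks did. With 0 of 1244 sites, a share of up to 0.308% is allowed by the Wilson interval and of 0.241% by a limit of 3 counts. Su(Hw) alone was called at 0.244% of CP190 peaks with BEAF and no dCTCF, which lies within the Wilson interval. The share was 1.05% at those with dCTCF and no BEAF and 3.56% at those with neither. The low share was thus not particular to these sites. None of the 1244 sites carried BEAF with Su(Hw) only (0.0959% of all). CP190 with Su(Hw) was called at 43 sites (3.47% of all CP190 peaks, and 3.46% here), CP190, BEAF and Su(Hw) at 33 (2.65%; 0.719% of all), all 4 at 26 (2.09%; 0.345%) and CP190, dCTCF and Su(Hw) at 22 (1.77%; 0.872%). The remaining 3 sites had dCTCF with Su(Hw), in 2 cases with BEAF as well (0.0575%) and in 1 without it (0.0959%). Sites with Su(Hw) had wide CP190 peaks, and in the widest quartile of CP190 peaks Su(Hw) was called at 19.0% (15.0 to 23.7%), in the narrowest at 2.56% (1.31 to 4.98%). The median CP190 scores in these quartiles were 3100 and 470, and the part of width and of score in the Su(Hw) calls was not tested.

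Each combination had its own profile of interphase scores. Sites that kept BEAF with or without CP190 had been strong BEAF sites: the median interphase BEAF score was 2290 where CP190 and BEAF were called, 2427 where CP190, dCTCF and BEAF were called and 2076 where dCTCF and BEAF were called. It was 135 where CP190 was called alone, 161 for CP190 with dCTCF and 136 where nothing was called. The median interphase dCTCF score was 3099 where exactly CP190 and dCTCF were called and 3100 where Su(Hw) was called with them. It was 148 for CP190, dCTCF and BEAF, 216 for all 4 and 300 where CP190 was called alone. By contrast, sites with mitotic dCTCF but no CP190 had weak interphase dCTCF. The median scores were 87.8 for dCTCF alone and 86.6 for dCTCF with BEAF, below the median of 110 at the sites without any mitotic call. Weak interphase dCTCF was not particular to them. The median dCTCF score was 77.9 where BEAF was called alone and 107 for CP190 with BEAF. The median interphase CP190 score lay between 1686 and 3100 for the combinations with CP190 and between 227 and 685 for those without it. The ranges overlapped, since sites with CP190, dCTCF and BEAF went down to 67.9 and sites without any mitotic call reached 3100.

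The highest scoring sites show these combinations one by one. The site at 3L 16948316 to 16949010 kept all 3 proteins, with scores of 3100 for CP190, 3152 for dCTCF and 3100 for BEAF in interphase and of 2361, 805 and 1536 in mitosis. At 3R 8806247 to 8807181 the 3 interphase scores were all 3100, and in mitosis CP190 was called with a score of 280 and BEAF with 2850, but dCTCF was not called. Both sites scored at or above 3100 for all 3 proteins in interphase, where many peaks are tied, so equal strength cannot be read from this. They differed in mitosis by the dCTCF call. The reverse case, with dCTCF called and BEAF not, was 3R 12086028 to 12087120. Its interphase scores were 3100 for CP190, 3100 for dCTCF and 1047 for BEAF. Its mitotic scores were 3100 for CP190 and 53.6 for dCTCF, near the lowest score of the main-arm mitotic dCTCF list, 50.02. CP190 was the single mitotic call at X 2233904 to 2234931, where the interphase scores were 3131, 3104 and 700 and the mitotic CP190 score was 196. Here a dCTCF peak at the upper end of its interphase list had no mitotic call.

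Sites without mitotic CP190 included strong ones. At 3L 11995637 to 11996536 interphase CP190, dCTCF and BEAF scored 1400, 3186 and 1905, and in mitosis dCTCF scored 136 and BEAF 111. At 2L 5948402 to 5949674 the interphase scores were 1274, 1818 and 3028, and BEAF was the single mitotic call, with a score of 614. At 2L 3530128 to 3530639 dCTCF was the single mitotic call, with 103, after interphase scores of 327 for CP190, 1774 for dCTCF and 514 for BEAF. None of the 4 proteins was called in mitosis at 3L 16654243 to 16655942, although CP190 had scored 3100, dCTCF 240 and BEAF 1274 in interphase, nor at 3R 1835049 to 1836197, with 951, 504 and 779. All 4 proteins were called at X 20630893 to 20632024, where the interphase scores were 3100, 3100 and 2999 and the mitotic scores were 3100 for CP190, 3100 for dCTCF, 499 for BEAF and 104 for Su(Hw). At 2L 71417 to 74029, with interphase scores of 3100, 3100 and 2027, mitosis showed CP190 at 2184, BEAF at 218 and Su(Hw) at 123, without dCTCF. The Su(Hw) scores at the sites ranged from 50.7 to 3100.

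CP190 and BEAF were each called in mitosis more often the higher their own interphase score. Over all sites, dCTCF calls differed less between dCTCF tertiles. From the lowest to the highest tertile of interphase BEAF scores (limits at 227 and 1766), mitotic BEAF was called at 3.37% (2.02 to 5.58%), 54.6% (49.8 to 59.3%) and 99.0% (97.6 to 99.6%) of sites. From the lowest to the highest tertile of CP190 scores (limits at 893 and 2646), mitotic CP190 was called at 34.5% (30.1 to 39.2%), 72.0% (67.5 to 76.1%) and 98.1% (96.2 to 99.0%). For dCTCF (limits at 85.3 and 363) the shares were 43.3% (38.6 to 48.1%), 43.8% (39.1 to 48.7%) and 50.8% (46.1 to 55.6%). These intervals overlap, but no interval of the difference between tertiles was computed. Over all sites mitotic dCTCF was called at 56.4% (51.6 to 61.1%) in the lowest CP190 tertile and at 38.6% (34.0 to 43.3%) in the highest. This fall lay at sites of low and middle dCTCF score, where the shares ran from 56.3% to 11.6% and from 67.9% to 25%. At sites of high dCTCF score the direction was the reverse, with 34.8% (24.6 to 46.6%) in the lowest CP190 tertile and 52.7% (46.2 to 59.1%) in the highest. Mitotic dCTCF thus rose with its own score at high CP190 scores, with 11.6%, 25% and 52.7% from the lowest to the highest dCTCF tertile. At middle CP190 scores the shares were 34.2%, 41.0% and 56.6%, and at low ones 56.3%, 67.9% and 34.8%. Mitotic BEAF was called at 60.7% (56.0 to 65.3%) of sites in the lowest CP190 tertile and at 46.3% (41.5 to 51.1%) in the highest, but these tertiles held 166 and 119 sites of high BEAF score. Within BEAF tertiles the shares in the lowest and highest CP190 tertiles were 0.952% and 5.03% at low BEAF scores, 61.1% and 47.4% at middle ones and 98.2% and 100% at high ones. The highest tertiles of CP190 and of BEAF scores each held 1 site of 415 without any mitotic call.

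**Figure D2:**
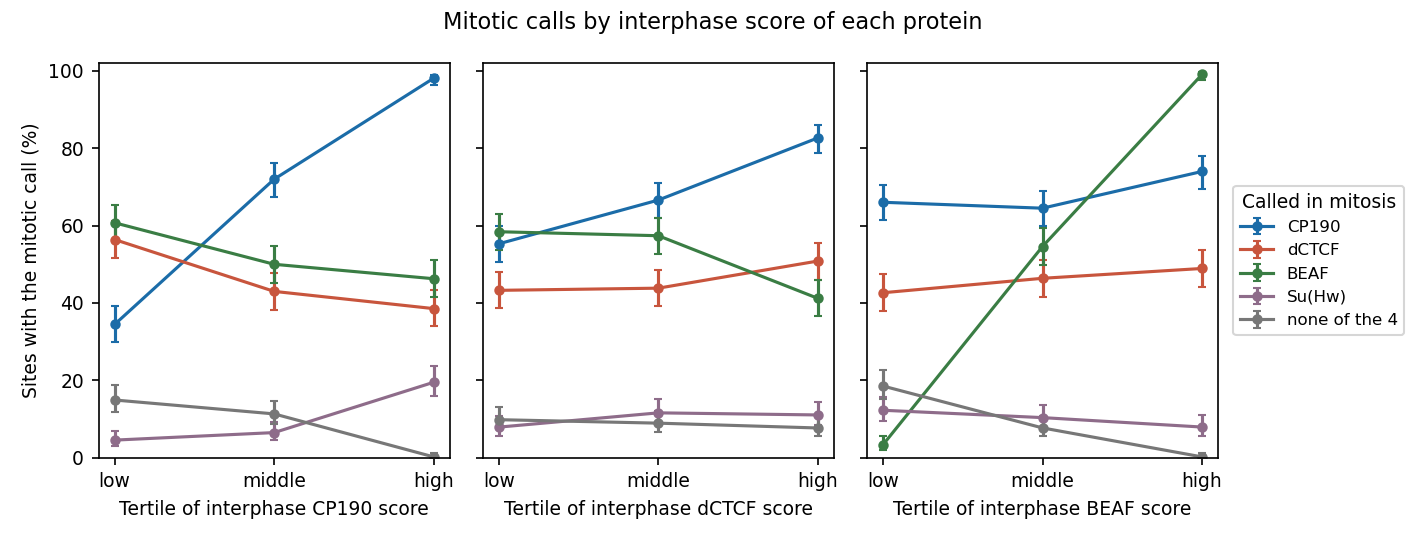
Share of the 1244 sites with each protein called in mitosis (percent, points with 95% Wilson intervals) by tertile of the interphase CP190, dCTCF or BEAF score. Mitotic BEAF runs from 3.37% to 99.0% across BEAF tertiles and mitotic CP190 from 34.5% to 98.1% across CP190 tertiles. Over all CP190 scores, mitotic dCTCF stays between 43.3% and 50.8% across dCTCF tertiles.

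When sites were divided by both partner scores, mitotic BEAF followed the BEAF score at every level of dCTCF. In the highest BEAF tertile it was called at all 165 sites of the lowest dCTCF tertile and at 95 of 97 sites of the highest, and in the lowest BEAF tertile at 2 of 109 and 7 of 196. Mitotic CP190 was called at 45.0% (36.0 to 54.3%) of the sites weak in both partners, at 66.1% (58.5 to 72.9%) of those weak in dCTCF and strong in BEAF and at 83.7% (77.9 to 88.2%) of those strong in dCTCF and weak in BEAF. It stood at 83.5% (74.9 to 89.6%) where both were strong. The interphase CP190 score moved with the dCTCF score, from a median of 1089 at sites weak in both to 2877 at those strong in dCTCF and weak in BEAF and 3100 where both were strong. It did not move so with BEAF: where dCTCF was weak, the median CP190 score was 681 with strong BEAF. Within the lowest tertile of CP190 scores, mitotic CP190 was called at 21.9% (15.1 to 30.7%) of the 105 sites with weak BEAF, at 28.5% (21.7 to 36.3%) of the 144 in the middle BEAF tertile and at 47.6% (40.1 to 55.2%) of the 166 with strong BEAF. CP190 sites of low score were thus called in mitosis more often where BEAF had been strong.

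**Figure D3:**
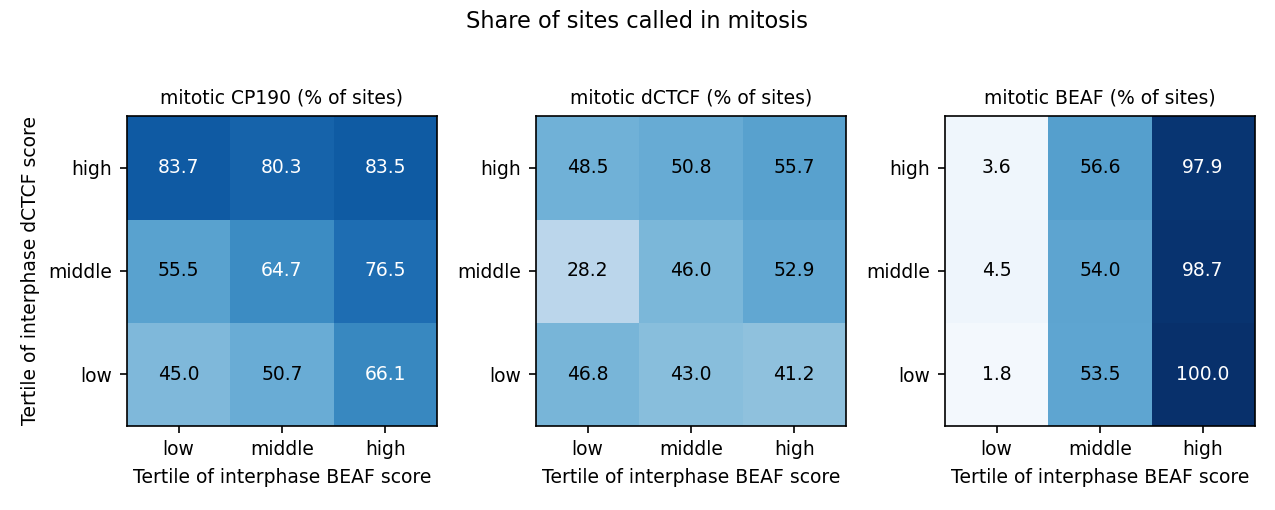
Share of sites (percent, number in each cell and colour scale from 0 to 100) called in mitosis for CP190, dCTCF and BEAF, by tertile of interphase dCTCF score (vertical) and BEAF score (horizontal). BEAF calls change along the BEAF axis only, from at most 4.55% to at least 97.9%, while CP190 calls reach 83.7% with strong dCTCF and dCTCF calls lie between 28.2% and 55.7%.

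How mitotic CP190 and mitotic dCTCF coincided differed with the interphase dCTCF score, but not clearly once the CP190 score was held. In the highest dCTCF tertile, CP190 was called at 88.6% of the 211 sites with mitotic dCTCF and at 76.5% of the 204 without it, a difference of 12.2 points (4.88 to 19.4). In the lowest tertile the shares were 44.4% of 180 and 63.6% of 236, a difference of -19.1 points (-28.3 to -9.47), and in the middle one the difference was -18.2 points (-27.2 to -9.00). The interphase CP190 score moved with this. In the lowest dCTCF tertile its median was 492 at sites with mitotic dCTCF and 1210 at sites without it, and in the highest it was 2896 and 2831. When sites were also divided by CP190 tertile, the difference in the lowest dCTCF tertile was -4.41 points (-17.2 to 8.32) at low CP190 scores and -10.1 points (-25.5 to 4.72) at middle ones, intervals that include 0. In the middle dCTCF tertile it was -3.13 points (-20.6 to 13.2), 10.2 points (-6.31 to 25.3) and -7.21 points (-20.4 to -0.542) from low to high CP190 scores. In the highest dCTCF tertile it was 21.4 points (-1.51 to 43.0), 9.60 points (-3.93 to 23.8) and 0.192 points (-4.30 to 5.08). At like CP190 scores neither the positive nor the negative difference was thus larger than counting error, except at strong CP190 sites of the middle dCTCF tertile. For mitotic BEAF and mitotic dCTCF the difference over all sites was within counting error. dCTCF was called at 48.2% of the 651 sites with mitotic BEAF and at 43.5% of the 593 without it, a difference of 4.73 points (-0.817 to 10.2). It was 13.0 points (3.34 to 22.3) in the middle dCTCF tertile and 10.0 points (0.249 to 19.6) in the lowest CP190 tertile. In all other tertiles of the dCTCF, CP190 and BEAF scores the interval included 0. The difference was 0.847 and 4.04 points in the lowest and highest dCTCF tertiles and -2.90 and 1.92 points in the middle and highest CP190 tertiles.

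Mitotic dCTCF and mitotic BEAF also differed with the distance between the interphase dCTCF and BEAF peaks. Where the midpoints lay at most 100 bp apart, dCTCF was called in mitosis at 33.9% of 557 sites, and where they lay over 200 bp apart at 59.5% of 452, a difference of 25.6 points (19.5 to 31.4). At weak dCTCF sites it was larger: the shares were 20.7% (14.8 to 28.2%) and 56.9% (50.2 to 63.5%) in the lowest dCTCF tertile and 22.2% (16.8 to 28.8%) and 66.2% (58.5 to 73.2%) in the middle one. In the highest tertile they were 50.6% (44.3 to 56.9%) and 53.5% (43.0 to 63.7%), with a difference of 2.86 points (-9.36 to 14.8). Sites with separated peaks had lower CP190 scores, but the difference was present at each level of CP190, at 37.7 points (26.3 to 47.5) in the lowest CP190 tertile, 15.7 points (4.70 to 26.3) in the middle and 16.5 points (4.37 to 28.5) in the highest. Mitotic BEAF was called at 40.9% of the close and 63.9% of the separated sites, a difference of 23.0 points (16.9 to 28.9), and at 15.2, 24.9 and 19.2 points more of the separated sites from the lowest to the highest CP190 tertile. By BEAF score the difference was -0.338 points (-3.96 to 5.25) in the lowest tertile, 11.9 points (1.23 to 22.2) in the middle and -0.290 points (-3.02 to 3.15) in the highest. Mitotic CP190 was called less often where the peaks were separated, with 55.5% against 76.7% of sites and a difference of -21.1 points (-26.8 to -15.3). Within CP190 tertiles that difference was -1.56 points (-12.9 to 9.17), 2.09 points (-8.23 to 11.9) and -3.70 points (-10.7 to 0.0150). These divisions by distance were chosen after the data were seen.

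Where the interphase peaks were separated, most mitotic midpoints of dCTCF and of BEAF lay nearer to the peak of their own protein. Over all sites most mitotic peaks overlapped both. Mitotic dCTCF peaks overlapped both the dCTCF and the BEAF peak at 542 of 572 sites (94.8%), and mitotic BEAF peaks did at 627 of 651 (96.3%). By midpoint, at sites with over 200 bp between the interphase peaks, the mitotic dCTCF peak was nearer to the interphase dCTCF peak at 213 of 269 sites (79.2%, 73.9 to 83.6%), with a median distance of 116 bp to dCTCF and 425 bp to BEAF. Mitotic BEAF was nearer to the dCTCF peak at 49 of 289 (17.0%, 13.1 to 21.7%), with medians of 339 bp to dCTCF and 72 bp to BEAF. The dCTCF share was 83.2% (75.5 to 88.9%) in the lowest dCTCF tertile and 69.6% (55.2 to 80.9%) in the highest. At weak interphase dCTCF peaks too, most mitotic dCTCF midpoints thus lay nearer to dCTCF than to BEAF. It was 78.7% (72.1 to 84.2%) where BEAF was also called in mitosis and 80.0% (70.9 to 86.8%) where it was not. At 167 of the 269 sites (62.1%, 56.2 to 67.7%) the mitotic dCTCF midpoint lay beyond the interphase dCTCF midpoint on the side away from BEAF. The mitotic dCTCF peaks at the sites were broad, with a median of 958 bp against 595 bp for mitotic BEAF.

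Mitotic CP190 midpoints lay between the interphase dCTCF and BEAF midpoints at 144 of 251 separated sites (57.4%), and mitotic BEAF midpoints at 169 of 289 (58.5%). The mitotic CP190 midpoint was nearer to the dCTCF peak at 109 of 251 such sites (43.4%, 37.4 to 49.6%) and the interphase CP190 midpoint at 160 of 452 (35.4%, 31.1 to 39.9%). The mitotic share was 35.8% (26.9 to 45.8%) in the lowest dCTCF tertile, 34.1% (25.2 to 44.3%) in the middle and 67.7% (55.6 to 77.8%) in the highest. Mitotic CP190 thus lay more often closer to dCTCF where dCTCF was strong and more often closer to BEAF where dCTCF was weak. At X 14847835 to 14850018, where the interphase peaks of dCTCF and BEAF were 1159 bp apart and scored 3100 and 3138, all 3 proteins were kept, with mitotic scores of 915 for CP190, 393 for dCTCF and 698 for BEAF. At 3R 25660545 to 25661526, with peaks 404 bp apart, dCTCF had a score of 52.8 in interphase and 73.4 in mitosis, BEAF had 3100 and 2021, Su(Hw) 60 in mitosis, and CP190 254 in interphase and no mitotic call.

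**Figure D4:**
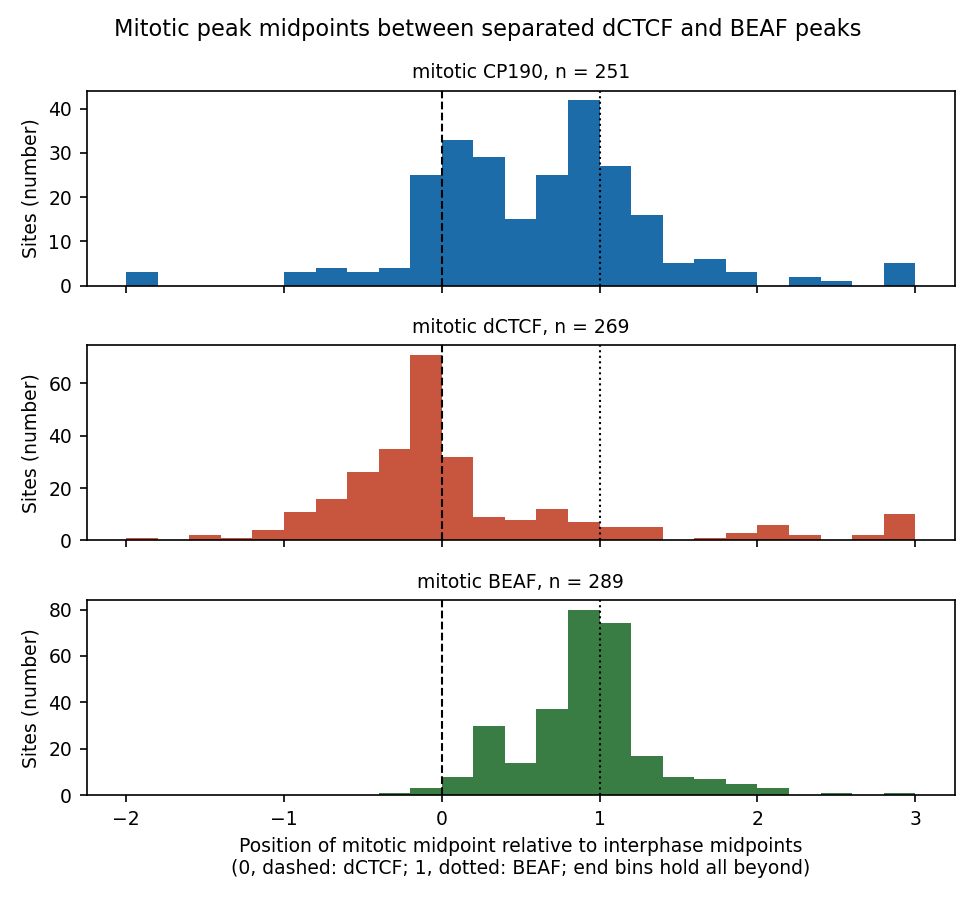
Position of the mitotic peak midpoint at sites whose interphase dCTCF and BEAF midpoints lie over 200 bp apart, on a scale with 0 at the dCTCF midpoint and 1 at the BEAF midpoint; bars count sites for CP190 (n = 251), dCTCF (n = 269) and BEAF (n = 289). Mitotic dCTCF gathers at and beyond 0 with a median of -0.0839, mitotic BEAF near 1 with a median of 0.941, and CP190 shows counts near both with a median of 0.641.

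Compared with CP190 peaks that carried a single partner, the sites with both carried mitotic dCTCF more often, and mitotic CP190 more often over all scores, while for mitotic BEAF the interval of the difference from CP190 sites with BEAF alone included 0. Mitotic dCTCF was called at 46.0% of the sites with both, 23.0% (20.4 to 25.8%) of those with dCTCF and no BEAF and 22.1% (20.6 to 23.7%) of those with BEAF and no dCTCF. The difference from the dCTCF sites was 23.0 points (19.1 to 26.8), and it was present in every quintile of interphase CP190 scores, from 20.8 points (15.4 to 25.9) in the highest to 35.8 points (21.3 to 48.8) in the second. Mitotic BEAF was called at 51.5% (49.7 to 53.3%) of the sites with BEAF and no dCTCF, 0.849 points (-2.48 to 4.16) from the share with both. It was called at 4 of the 953 sites with dCTCF and no BEAF. Mitotic CP190 was called at 34.3 points (31.1 to 37.3) more of the sites with both than of the BEAF sites, but at equal CP190 scores this fell to 9.04 points (4.45 to 14.0) in the highest quintile, 7.88 points (0.936 to 14.7) in the fourth, 3.47 points (-4.33 to 12.2) in the third, -1.60 points (-9.60 to 9.79) in the second and 0.0567 points (-8.51 to 15.1) in the lowest. Against the dCTCF sites the difference was 26.2 points (22.1 to 30.2) over all scores and 14.1 points (9.35 to 19.1) in the highest quintile, and it was 11.8 points when members were chosen by a reciprocal overlap of 50% and 16.4 points with equal numbers of mitotic peaks. For Su(Hw), in the highest quintile, the sites with both stood at 13.5% and CP190 peaks with neither partner at 28.0%, a difference of -14.5 points (-18.9 to -10.1). Over all scores the direction was the opposite, with 10.2% against 8.42% and a difference of 1.79 points (0.0445 to 3.73). In the fourth quintile the difference was -0.845 points (-4.26 to 3.399). In the highest quintile Su(Hw) was called at 16.9% of CP190 peaks with BEAF alone and at 14.3% of those with dCTCF alone. The differences from these were -3.39 and -0.780 points, with intervals that included 0. The lower share than at peaks with neither partner was thus not particular to the sites with both. Over all scores the differences from the BEAF and the dCTCF sites were 5.15 and 2.44 points. At least 3 of the 4 proteins were called in mitosis at 21.5% (19.4 to 23.9%) of the sites with both, 7.08% with BEAF alone and 1.68% with dCTCF alone. Within CP190 quintiles the difference from the BEAF sites ran from 3.51 points (-1.30 to 12.8) in the second to 14.1 points (9.06 to 19.8) in the fourth. From the dCTCF sites it ran from 7.81 points (2.50 to 17.0) in the second to 21.5 points (17.9 to 24.9) in the highest. The CP190 peaks with both partners were wider, with a median of 897 bp against 613, 675 and 554 bp for those with BEAF, dCTCF and neither. Among the sites with both, at least 3 proteins were called at 13.5% in the narrowest quartile of CP190 peaks and 33.4% in the widest. The part of width in the differences between classes was not tested.

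**Figure D5:**
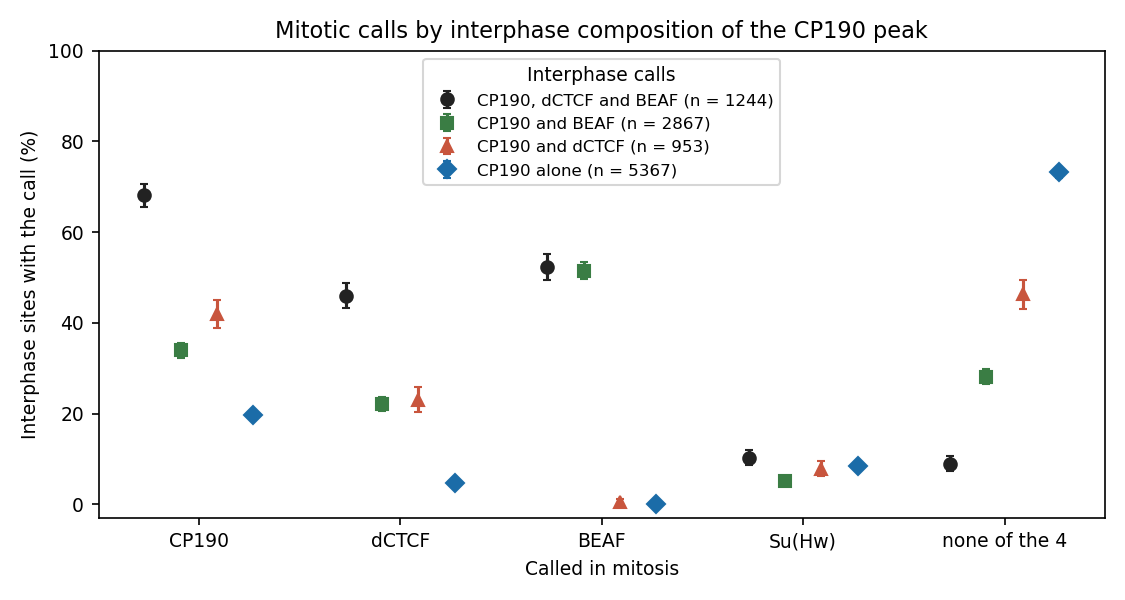
Share of main-arm interphase CP190 peaks (percent, points with 95% Wilson intervals) with each protein called in mitosis, by whether dCTCF and BEAF were called in interphase. Sites with both partners stand highest for CP190 (68.2%) and dCTCF (46.0%) and lowest for no call (8.84%), and mitotic BEAF stands at 52.3% there and at 51.5% of CP190 and BEAF sites.

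The sites and their mitotic calls were spread over the chromosomes. They made up between 10.5% of the interphase CP190 peaks on 2L and 12.9% on 3R among the large arms and X, and 19.6% on chromosome 4. Mitotic dCTCF was called at 43.7 to 47.8% of sites on the large arms and X. Among these, X had the highest shares of mitotic CP190 (75.5%, 69.8 to 80.5%), BEAF (61.6%, 55.4 to 67.5%) and Su(Hw) (15.5%, 11.5 to 20.6%), and the lowest share without a call (4.08%, 2.23 to 7.35%). The large autosomal arms ranged from 63.2 to 71.9% for CP190, from 46.9 to 52.1% for BEAF and from 8.37 to 9.12% for Su(Hw). On chromosome 4, 6 of 10 sites had mitotic CP190 and 1 had dCTCF. A neighbouring site lay within 5 kb of 280 sites, and these had mitotic CP190 at 60.7% (54.9 to 66.3%), against 70.3% (67.4 to 73.1%) of the others; the median CP190 scores were 1105 and 1762.

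Where proteins were called in mitosis, their scores could be compared within a list. Mitotic CP190 peaks at the sites had a median score of 244, while the median of the whole main-arm list was 124, and the medians were 499 and 320 for BEAF, 136 and 103 for dCTCF and 101 and 78.8 for Su(Hw). Mitotic CP190 scored highest where dCTCF and Su(Hw) were called with it, at a median of 1520 over 22 sites, and next where BEAF and Su(Hw) were, at 766 over 33. It was 310 with dCTCF, 186 with BEAF, 207 with dCTCF and BEAF, and 229 alone. Mitotic BEAF had median scores of 545 with CP190, 666 with CP190 and dCTCF, 361 with dCTCF and 333 alone.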

How the data were processed

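The data are peak lists from ChIP-seq of Kc167 cells fixed with 1% formaldehyde, per the labels' protocols. The read aligner Bowtie, version 0.12.5, is named per the submitters' processing notes. For each library the authors deposited a peak list with 1 score per peak; MACS appears in the peak names. The sources used here do not say how peaks were called, against which control or on which build. Names like Uextra belong to Drosophila release 5. The gene table at hand is of release 6, so sites were not assigned to genes and no sequences were read. Positions are printed 1-based, so each start is 1 bp higher than the start in the file. The deposited score depends on depth, which is unknown, so it was used within a list only.

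Overlaps of at least 1 bp were computed in Python 3.11.15 with NumPy 2.4.6 and SciPy 1.17.1, and figures with matplotlib 3.10.9. Overlap code was tested on simulated data, and on the real lists it gave the counts of bedtools 2.31.1 in 84 of 84 comparisons. Score tertiles are of the members and CP190 quintiles of all main-arm interphase CP190 peaks. Named sites are, per mitotic combination, the 3 members (1 where the combination held under 20) whose lowest interphase rank over the 3 lists was highest; examples are given. Members and analyses were chosen with earlier results of these data known. The 4 mitotic lists played no part in choosing members.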

Additional observations from a re-analysis of the deposited data

Results flagged for a closer look

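Sequences off the main arms (Uextra, U and the heterochromatin sequences), which the comparisons above leave out, held another 146 interphase CP190 peaks with both dCTCF and BEAF. All 4 proteins were called in mitosis at 12 of them (8.22%, 4.76 to 13.8%), and on the main arms at 2.09% (1.43 to 3.05%). It is listed because it is a signal outside the main measurement; the difference from the main arms was not tested. CP190 was called at 76.0% (68.5 to 82.2%) of these sites, dCTCF at 77.4% (70.0 to 83.4%), Su(Hw) at 25.3% (19.0 to 33.0%) and BEAF at 21.9% (15.97 to 29.3%). Shares over all interphase CP190 peaks off the main arms were not computed, so these values have no background beside them. Of 6030 mitotic dCTCF peaks 2237 lay on the main arms, and of 3962 in interphase 2882 did. For mitotic CP190 it was 3759 of 5608, for Su(Hw) 1024 of 1829 and for BEAF 2432 of 3325. Of the 146 sites 121 lay on Uextra, sequence that is not placed on a chromosome and can hold repeats, and the part of repeated sequence in these calls was not tested.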

How the results depend on the processing

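Over 64 recomputed values, 35 stayed within the interval of the reported value and 29 moved. None of the recomputed differences changed sign, and shares cannot. Some of the 35 could not move by construction. Equal numbers of mitotic peaks leave Su(Hw) unchanged, because its own list set the number. A mitotic peak over the interphase peak of its own protein leaves CP190, its differences and Su(Hw) unchanged. The site is itself the CP190 peak, and Su(Hw) has no interphase list here. With a reciprocal overlap of 50% between the mitotic peak and the CP190 peak, mitotic CP190 stood at 50% of sites, dCTCF at 27.7%, BEAF at 33.6%, Su(Hw) at 8.04% and no call at 27.6%, and CP190 exceeded the sites with BEAF by 22.3 and those with dCTCF by 19.8 points. With a mitotic score of at least 100 the shares were 54.1, 30.8, 44.9, 5.14 and 19.1%. With equal numbers of mitotic peaks CP190, dCTCF, BEAF and no call stood at 34.4, 28.6, 27.8 and 33.9%, and the CP190 differences were 27.5 and 16.4 points. With a mitotic peak required over the interphase peak of its own protein, 85.0% of separated mitotic dCTCF midpoints were nearer to dCTCF. Membership by reciprocal 50% overlap left 531 sites, with CP190 at 64.4%, BEAF at 61.0%, Su(Hw) at 8.47% and CP190 differences of 29.5 and 11.8 points. Interphase scores of at least 100 left 587 sites, with CP190 at 78.2%, BEAF at 58.8% and no call at 5.45%. A base common to all 3 peaks changed no value beyond its interval. The 400 bp around the CP190 midpoint, chosen after seeing the data, gave BEAF at 49.5%, and leaving out the mitotic dCTCF list, also chosen then, gave no call at 16.8%. Stricter rules remove calls by construction; other causes were not tested. No paired analysis was possible because each group is 1 library. Depth is unknown, so weak sites without a mitotic call cannot be told from sites missed.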
